A study of Homo sapiens with 16 samples.

Results

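CREBBP targeting without IL4 was examined in 8 of the 16 RNA-seq libraries of the study. The libraries were those labelled baseline: 4 from pools in which CREBBP was targeted (genotype CREBBP -/-) and 4 from control pools in which the AAVS site was targeted (genotype AAVS -/-). Each of 4 established human B-cell lymphoma lines, entered as SUDHL4, SUDHL10, OCILY7 and DOHH2, gave 1 library per target, so the comparison was paired by line. All 8 pools, controls included, had been made with a lentiviral CRISPR vector (pLENTI-CRISPRv.2) carrying Cas9 and 4 guides for the target, and all were cultured for 4 h without added IL4. They were pools of edited cells and not single clones, so a pool may hold cells with different alleles, and a control pool carries its own cut at the AAVS site. The other 8 libraries were the same pools given 10 ng/ml IL4.

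CREBBP encodes a lysine acetyltransferase that is recruited by sequence-specific transcription factors and adds acetyl groups to histones at enhancers and promoters. EP300 is its close paralog and shares many of its sites. In germinal centre B cells CREBBP acts opposite the repressor BCL6, which brings deacetylase complexes to genes of B-cell activation, antigen presentation and exit from the germinal centre, and CREBBP is among the genes most often mutated in follicular and diffuse large B-cell lymphoma.

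The lines did not stand apart from each other equally. Between different lines among SUDHL4, OCILY7 and DOHH2, 1 to 17 genes were at 10 CPM (library-scaled counts) or more in one library and under 0.5 CPM in the other, against 1 to 5 genes between the 2 pools of a line and 149 to 235 genes between SUDHL10 and any other line. Whether these are distinct lines could not be settled from the counts, so n = 3 and the 3-line p-values hold only as far as the 3 entries are separate lines. BCL2, an anti-apoptotic gene often translocated in follicular lymphoma, was at 210.8 to 680.9 CPM in the libraries of the 3 lines and at 1.03 to 3.15 CPM in the SUDHL10 libraries. For replicates 2 and 3, title and cell line entry disagree on which is SUDHL10 and which OCILY7, and the entry was followed here. Total counts ran from 29196801 to 56115623 per library. The OCILY7 CREBBP library had 13.3% of its counts on RN7SK and RN7SL genes against 5.04 to 7.14% in the other 7 libraries, so plain CPM values of other genes in that library are low, which the fits scaled for (TMM factor 0.792). All 10 B-cell markers were at 1 CPM or more in every library, summing to 4306 to 6149 CPM in AAVS pools and 3498 to 4435 CPM in CREBBP pools. Of the markers of other cells, 15 T-cell genes summed to 102.8 to 182.2 CPM in AAVS pools and 89.84 to 173.1 CPM in CREBBP pools, and 12 myeloid genes to 4.218 to 14.09 and 2.017 to 4.35 CPM. All 7 T-cell markers tested had a fold change below 0 in the 3 lines (median -1.038, 4 lower in each line, 0 called). All 5 myeloid markers tested were lower in CREBBP pools in each of the 3 lines, 1 of them called (FCN1, log2 fold change -1.95), and the part of any other cells in the results below was not tested. The summed CPM of 8 NK-cell markers (0.5952 to 2.272 and 0.6259 to 1.404), 12 fibroblast or epithelial markers (12.14 to 25.81 and 12.81 to 34.1) and 8 erythroid or megakaryocyte markers (0.02052 to 1.508 and 0.2543 to 0.6508) overlapped between AAVS and CREBBP pools. Of 4 fibroblast or epithelial markers tested in the 3 lines, 3 had a fold change below 0 and 1 above. COL1A1 was the 1 called, and it was lower (log2 fold change -4.37). In bulk RNA, fewer cells of a kind and less RNA per cell cannot be told apart.

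CREBBP mRNA itself was not lower in a called way. The gene (chr16:3725054-3880713, minus strand, GRCh38) was at 269, 360, 246 and 205 CPM in the SUDHL4, OCILY7, DOHH2 and SUDHL10 AAVS pools and at 278, 187, 270 and 191 CPM in the CREBBP pools. Its log2 fold change was -0.11 (SE 0.21, adjusted p = 0.851, edgeR's quasi-likelihood test) over 4 lines, with a clearly lower value in the OCILY7 pair only. Counts over a whole gene do not report small insertions or deletions, so the label was not checked by this value. EP300 was at 413, 446, 420 and 206 CPM in AAVS pools and 358, 231, 406 and 194 CPM in CREBBP pools (log2 fold change -0.22, SE 0.20, adjusted p = 0.675), with the largest gap again in OCILY7. None of the 14 lysine acetyltransferase genes tested was called in either fit.

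Over all 4 lines no gene passed an adjusted p of 0.05 among 18936 tested (0%), by edgeR's quasi-likelihood test with line as a block. At an unadjusted p under 0.05, 1201 genes were higher (6.34%) and 1221 lower (6.45%), and the smallest adjusted p was 0.15. On the same counts limma-voom called 18 higher and 21 lower, and DESeq2 257 and 254. In the 3 lines SUDHL4, OCILY7 and DOHH2, 306 of 19206 genes rose (1.59%) and 209 fell (1.09%). Of the called genes 241 rose and 191 fell by more than 2-fold. The median log2 fold change was 1.17 over all genes that rose and -1.57 over all that fell. The genes that rose were nearly all protein coding (296 of 306) and had a median mean level of 49.4 CPM, whereas the genes that fell held 161 protein coding genes and 44 lncRNA genes and had a median level of 11.1 CPM. The 3-line count rested on the OCILY7 pair in particular: without it 45 genes rose and 41 fell, while without the SUDHL4 pair the counts were 517 and 294, and without DOHH2 222 and 200. Where the SUDHL4 and OCILY7 entries were summed and counted as 1 replicate, 84 rose and 67 fell. Without line as a block none was called. With upper-quartile scaling, which moved the median of all genes to -0.166, 227 rose and 410 fell, so the share of calls that were higher went from 59.4% to 35.6%. A set of 63 genes was called in the 3 lines and again without each line in turn, 35 of them higher and 28 lower.

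The 8 genes per direction that came nearest to a call over 4 lines are given as uncalled, since each had an adjusted p of 0.15. All 16 moved in the same direction in each of the 4 lines, as did 9.82% (higher) and 10.9% (lower) of all genes tested. Choice by p over these same lines favours such agreement, so it is not separate evidence. Each of the 16 was also called in the 3 lines, a fit on part of the same libraries. On the lower side CCR6, the receptor for CCL20 (chr6:167111807-167139141, plus strand), was at 7.22, 2.98, 4.72 and 0.049 CPM in the SUDHL4, OCILY7, DOHH2 and SUDHL10 AAVS pools and at 0.555, 0.604, 0.527 and 0 CPM in the CREBBP pools. In the 3 lines that express it, the groups did not overlap, and it fell from 4.97 ± 2.13 to 0.562 ± 0.0392 CPM (SD, n = 3; log2 fold change -2.92, SE 0.46, adjusted p = 0.0165). MOB3B, of the MOB kinase activator family, was at 13.5, 7.12, 9.6 and 1.47 CPM in AAVS pools and 4.06, 1.42, 1.51 and 0.206 CPM in CREBBP pools. ADGRG5, an adhesion G protein-coupled receptor, was at 11.5, 7.94, 3.65 and 42.4 CPM in AAVS pools and 3.91, 1.75, 1.29 and 8.53 CPM in CREBBP pools. Both were lower in every pair, and over 4 lines their log2 fold changes were -2.24 and -1.79. ENTPD1, which encodes the ectonucleotidase CD39, was at 18.7, 13.3, 25.9 and 10.8 CPM in AAVS pools and 6, 5.01, 11.2 and 3.84 CPM in CREBBP pools (log2 fold change -1.34, SE 0.23), a drop of like size in each line. The other 4 were the inflammasome gene NLRP7 (-2.28), the microRNA host gene MIR223HG (-2.33), ABAT, a GABA transaminase (3-line value -1.36), and LINC00487 (3-line value -1.59).

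On the higher side, the 8 genes were DNA replication, cell-cycle and histone genes with 1 exception. MCM6, a subunit of the replicative helicase (chr2:135839626-135876443, minus strand), was at 72.8, 102, 103 and 322 CPM in the SUDHL4, OCILY7, DOHH2 and SUDHL10 AAVS pools and at 221, 232, 249 and 542 CPM in the CREBBP pools. Its level was higher in SUDHL10 controls than in the CREBBP pools of the other lines, and within each line the CREBBP pool was higher still (4-line log2 fold change 1.31, SE 0.20). CDC45, which joins the same helicase at origins, was at 11.2, 24.1, 17.1 and 45.3 CPM in AAVS pools and 39.8, 50.4, 32.5 and 83.3 CPM in CREBBP pools. DUT, the dUTPase that keeps uracil out of DNA, was at 42.6, 54.8, 48.4 and 99.9 CPM in AAVS pools and 99.4, 106, 101 and 146 CPM in CREBBP pools. Both were higher in the CREBBP pool of every line, and SUDHL10 was the highest line under each target. PKMYT1, a kinase that holds CDK1 inactive before mitosis, had a 4-line log2 fold change of 1.24. The histone genes H2AC19 (1.68), H2AC12 (1.34) and H2AC20 (1.02) completed the group, and HILPDA, a lipid droplet protein induced by low oxygen, was the exception. HILPDA was at 9.05, 7.53, 22.8 and 10.6 CPM in AAVS pools and 39.6, 27.7, 36.2 and 84.6 CPM in CREBBP pools (log2 fold change 2.02, SE 0.33), with the largest step in SUDHL10.

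**Figure D1:**
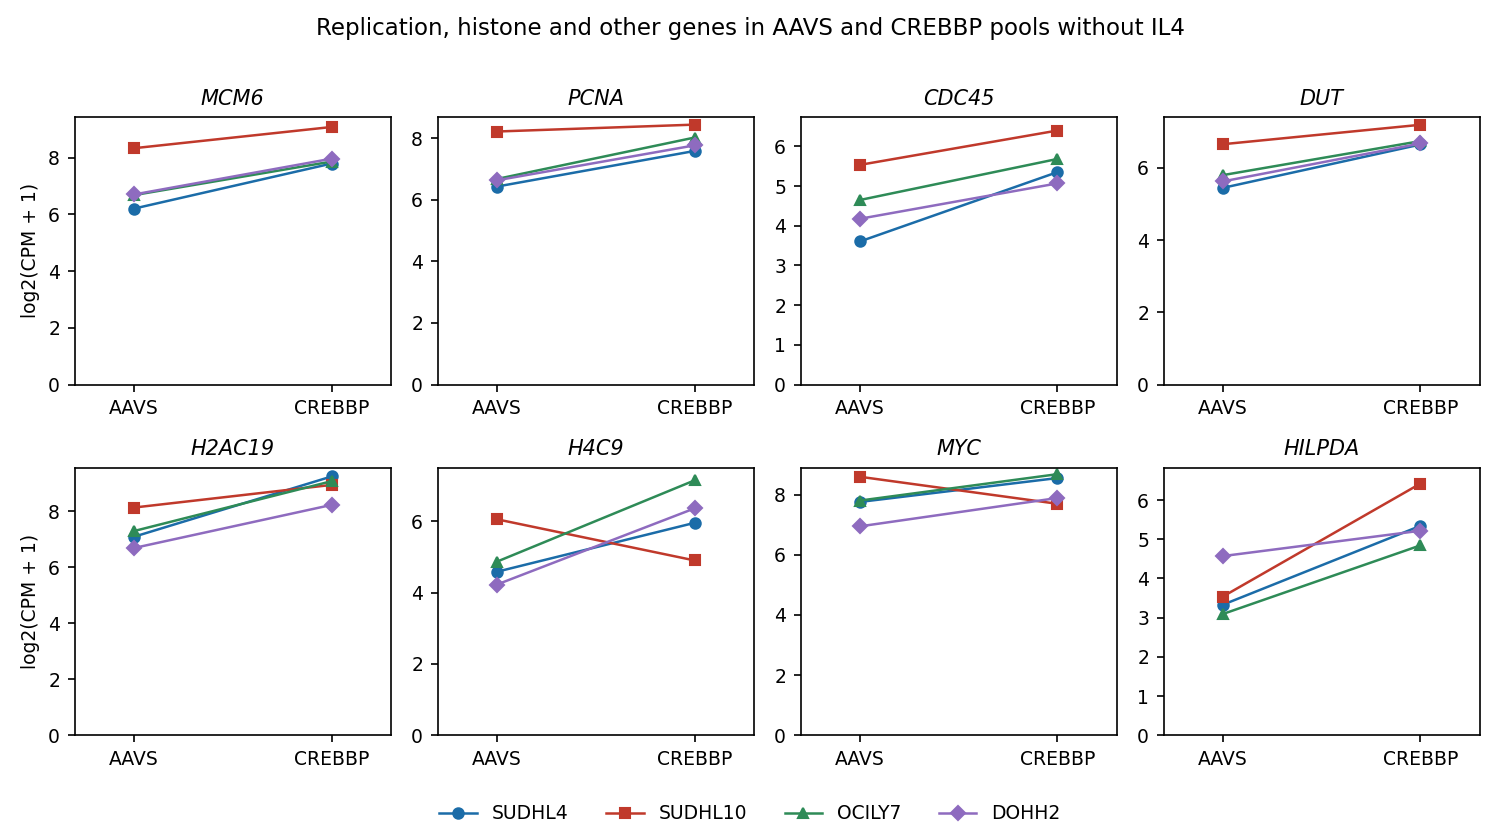
Level of 8 genes as log2(CPM + 1) (y axes, linear from 0) in the AAVS and CREBBP pool of each line without IL4, with 1 line per cell line entry joining its 2 libraries. MCM6, PCNA, CDC45, DUT, H2AC19 and HILPDA are higher in the CREBBP pool of every line, and H4C9 and MYC are lower in SUDHL10 only.

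Replication-dependent histone genes were the largest group among the genes that rose. These genes lie in clusters on chromosomes 6 and 1, are transcribed during DNA synthesis and give mRNAs without a poly(A) tail, which were counted here because the libraries were made from rRNA-depleted RNA. The family was taken up after its values were seen, and near-identical copies share reads, so single genes are less certain than their sum. Of 61 histone genes tested in the 3 lines 54 rose and 0 fell, against the 1.59% of all genes that rose, and the median log2 fold change was 1.45 against -0.022 for all genes. Of the 54, 44 were on chromosome 6 and 10 on chromosome 1. All classes took part: 4 of 6 H1 genes rose (median 1.362), 14 of 15 H2A (1.450), 13 of 15 H2B (1.483), 10 of 11 H3 (1.345) and 13 of 14 H4 (1.512). The summed share of all counts was 0.709% in the SUDHL4 AAVS pool and 1.63% in its CREBBP pool, 1.08% and 3.23% in OCILY7, and 0.739% and 1.68% in DOHH2. In SUDHL10 the AAVS pool, at 1.28%, was above the other controls, and its CREBBP pool was at 1.37%. By line, 59, 61, 60 and 39 of the 61 genes were higher in the SUDHL4, OCILY7, DOHH2 and SUDHL10 CREBBP pool, with medians of 1.195, 1.966, 1.203 and 0.139. The median over the 3 lines was 1.304 with upper-quartile scaling and 1.267 without the OCILY7 pair, where 24 were called.

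**Figure D2:**
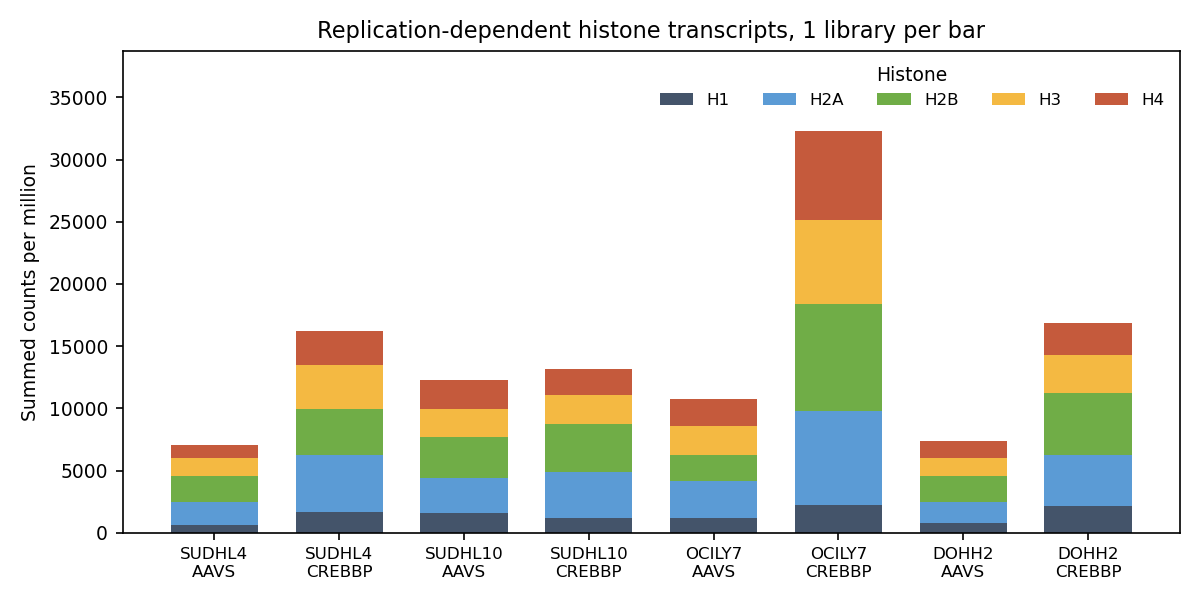
Summed CPM of the replication-dependent histone genes (y axis, from 0) in the 8 libraries without IL4, 1 bar per library, stacked by histone class. The CREBBP bar is more than double its AAVS bar in SUDHL4, OCILY7 and DOHH2, and about level with it in SUDHL10.

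H2AC19 (chr1:149851061-149851594, plus strand) was one of the genes higher in every line: 135, 156, 102 and 279 CPM in the SUDHL4, OCILY7, DOHH2 and SUDHL10 AAVS pools against 603, 537, 298 and 489 CPM in the CREBBP pools. Over the 3 lines its mean rose from 131 ± 27.1 to 479 ± 160 CPM (SD, n = 3; log2 fold change 1.96, SE 0.23, adjusted p = 0.00922). H4C9 (chr6:27139282-27139678, plus strand) was at 23, 28.2 and 17.7 CPM in the AAVS pools of the 3 lines and 61, 140 and 81.1 CPM in their CREBBP pools. In SUDHL10 it went the other way, from 65.4 to 28.9 CPM, and the difference in effect between SUDHL10 and the 3 lines was called (-3.15 on the log2 scale, adjusted p = 0.0225). H4C1 rose with a log2 fold change of 2.08, H2AC15 with 2.03, H3C8 with 1.95 and the pseudogene H2BC19P with 2.26.

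A part of the DNA replication genes was called higher beside the histones. The list of proliferation genes, chosen like the other lists with earlier results of these data known, had 31 members tested. Of these 11 rose, against 1.59% of all genes, and 0 fell in the 3 lines, with a median of 0.860. All 31 had a fold change above 0 and 24 were higher in each of the 3 lines, against 20.4% of all genes higher in each. The 11 include all 6 subunits of the MCM2-7 helicase, a family taken up after its values were seen. MCM2 rose by 1.36, MCM3 by 1.27, MCM4 by 1.43, MCM5 by 1.23, MCM6 by 1.48 and MCM7 by 1.32 on the log2 scale. In SUDHL10 the median of these 6 was 0.671, and the median of the proliferation list was -0.047. PCNA, the sliding clamp of DNA polymerase, was at 85.2, 101, 98.2 and 297 CPM in the SUDHL4, OCILY7, DOHH2 and SUDHL10 AAVS pools and 191, 259, 217 and 346 CPM in the CREBBP pools (3-line log2 fold change 1.35, SE 0.21, adjusted p = 0.0165). The groups of the 3 lines did not overlap, and the SUDHL10 control was above all their CREBBP pools.

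Beside the MCM subunits and PCNA, the called members of the proliferation list were genes of nucleotide supply and licensing. UNG, a gene of uracil removal, was called outside the list. The ribonucleotide reductase subunits RRM1 and RRM2 rose by 0.89 and 1.04 on the log2 scale, thymidylate synthase TYMS by 1.15 and the licensing factor CDC6 by 1.26. UNG, the uracil-DNA glycosylase, was at 12, 15.6, 18.9 and 88.9 CPM in the AAVS pools and 51, 48.8, 44.9 and 106 CPM in the CREBBP pools. In the 3 lines UNG rose from 15.5 ± 3.46 to 48.2 ± 3.13 CPM (SD, n = 3; log2 fold change 1.79, SE 0.23, adjusted p = 0.00922). It was named after its values were seen and was among the 63 genes called without any 1 line, as were MCM4, MCM6, PKMYT1, FEN1, POLA2 and UHRF1. Of other families taken up after their values were seen, 3 of 4 GINS genes and 3 of 5 RFC genes rose (medians 1.091 and 1.094). Mitochondrial genes had smaller medians: 6 of 47 NDUF genes (complex I) and 8 of 78 MRPL and MRPS genes (mitochondrial ribosome) rose, against 1.59% of all genes, with medians of 0.741 and 0.599.

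Promoters of the raised genes were read for known letters of S-phase control. RefSeq promoters (GRCh38.p14, from 250 bases before to 50 after the first listed start) were matched for 250 of the 306 raised and 126 of the 209 lowered genes. E2F factors drive S-phase genes, and their letters TTTCGCGC, TTTGGCGC or TTTCCCGC, searched on both strands, were in 17.6% of raised promoters, in 16.4% once histone genes were left out, in 0.794% of lowered promoters, in 4.58% of the promoters of tested genes and in 2.79% of all promoters. The octamer ATTTGCAT, read by POU factors, was in 77.8% of 18 H2B promoters, in 0.498% of the raised promoters that were not histone genes, in 3.97% of lowered promoters and in 1.8% of all. The full cyclic AMP response element TGACGTCA, read by CREB, was in 8.4% of raised promoters, in 5.97% once histone genes were left out, in 3.17% of lowered promoters, in 3.25% of those of tested genes and in 1.98% of all. CCAAT was in 53.6% of raised promoters, in 46.3% without histone genes, in 38.1% of lowered promoters, in 37% of those of tested genes and in 35.7% of all. A match is a description of the letters and not a bound site.

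The 250 bases before the start are shown for 2 helicase genes with E2F letters and 2 H2B genes with the octamer, all 4 called higher in the 3 lines. Capitals mark the E2F letters in MCM6 and MCM7 and the octamer in H2BC11 and H2BC14, matches to other motifs are left in lower case, and where forward and reverse matches overlap they form 1 longer run. The genes are given 5′ to 3′ on their own strand, MCM6 at chr2:135876444-135876693 (minus), MCM7 at chr7:100101398-100101647 (minus), H2BC11 at chr6:27132796-27133045 (minus) and H2BC14 at chr6:27814772-27815021 (plus).
MCM6: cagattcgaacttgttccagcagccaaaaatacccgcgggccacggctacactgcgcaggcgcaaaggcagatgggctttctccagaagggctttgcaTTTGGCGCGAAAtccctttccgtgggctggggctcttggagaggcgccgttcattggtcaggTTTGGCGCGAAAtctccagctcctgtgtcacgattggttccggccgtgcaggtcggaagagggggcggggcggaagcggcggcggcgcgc
MCM7: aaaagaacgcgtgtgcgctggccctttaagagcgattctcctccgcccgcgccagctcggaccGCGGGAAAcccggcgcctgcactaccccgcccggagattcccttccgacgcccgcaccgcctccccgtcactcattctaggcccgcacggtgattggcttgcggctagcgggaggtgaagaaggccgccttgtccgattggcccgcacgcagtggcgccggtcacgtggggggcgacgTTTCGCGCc
H2BC11: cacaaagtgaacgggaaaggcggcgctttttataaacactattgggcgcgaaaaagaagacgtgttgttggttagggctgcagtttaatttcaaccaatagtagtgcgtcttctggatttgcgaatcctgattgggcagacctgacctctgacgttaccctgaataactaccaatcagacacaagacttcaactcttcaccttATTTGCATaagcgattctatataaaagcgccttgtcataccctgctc
H2BC14: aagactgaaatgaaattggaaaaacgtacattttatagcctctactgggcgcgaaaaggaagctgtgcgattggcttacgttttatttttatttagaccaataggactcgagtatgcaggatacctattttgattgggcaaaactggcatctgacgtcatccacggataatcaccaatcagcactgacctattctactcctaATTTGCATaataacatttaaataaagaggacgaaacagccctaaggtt
MCM6 holds 2 copies of the longer run and MCM7 holds 2 separate matches, and each H2B promoter holds 1 octamer, nearer to the start than to the far end. Both H2B promoters also hold 1 match to the E2F letters on the reverse strand, and H2BC14 holds the cyclic AMP response element.

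MYC, the growth-promoting transcription factor, was 1 of 2 members of its list of 16 that rose, with CDK4, against 1.59% of all genes. MYC was at 215, 222, 122 and 384 CPM in the SUDHL4, OCILY7, DOHH2 and SUDHL10 AAVS pools and 373, 408, 235 and 206 CPM in the CREBBP pools. It rose in the 3 lines (log2 fold change 1.004, SE 0.21, adjusted p = 0.0359) and was lower in the SUDHL10 CREBBP pool, a difference between lines that did not pass the test (-1.77, adjusted p = 0.125). CDK4, a kinase that starts S-phase entry, was at 98.9, 124, 58.5 and 126 CPM in AAVS pools and 172, 207, 109 and 132 CPM in CREBBP pools. The list as a whole had a median of 0.196.

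RGS1, SGK1 and SLAMF7 were among the genes that fell with the smallest p in the 3 lines. RGS1, which shortens signalling through chemokine receptors (chr1:192575763-192580024, plus strand), was at 170, 156, 85 and 2.75 CPM in the SUDHL4, OCILY7, DOHH2 and SUDHL10 AAVS pools and at 35.7, 20.5, 8.58 and 52.6 CPM in the CREBBP pools. In the 3 lines it fell 6.49-fold, from 137 ± 45.7 to 21.6 ± 13.6 CPM (SD, n = 3; log2 fold change -2.70, SE 0.24, adjusted p = 0.0044). In SUDHL10 it was higher in the CREBBP pool, and the effects differed by 7.09 on the log2 scale (adjusted p = 0.000229). SGK1, a kinase downstream of PI3K signalling (chr6:134169248-134318112, minus strand), was at 124, 149, 86 and 72.1 CPM in AAVS pools and 33.3, 27.8, 9.36 and 193 CPM in CREBBP pools. It fell from 120 ± 31.5 to 23.5 ± 12.5 CPM in the 3 lines (log2 fold change -2.37, SE 0.26, adjusted p = 0.00855) and, like RGS1, was higher in the SUDHL10 CREBBP pool. SLAMF7, a surface receptor of the SLAM family (chr1:160739057-160754821, plus strand), was at 17.8, 19.7, 8.09 and 0.76 CPM in AAVS pools and 2.9, 1.55, 1.24 and 1.61 CPM in CREBBP pools. It fell from 15.2 ± 6.23 to 1.9 ± 0.883 CPM (log2 fold change -2.87, SE 0.31, adjusted p = 0.00855), with no overlap in the 3 lines and a level near the floor of the others in SUDHL10.

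**Figure D3:**
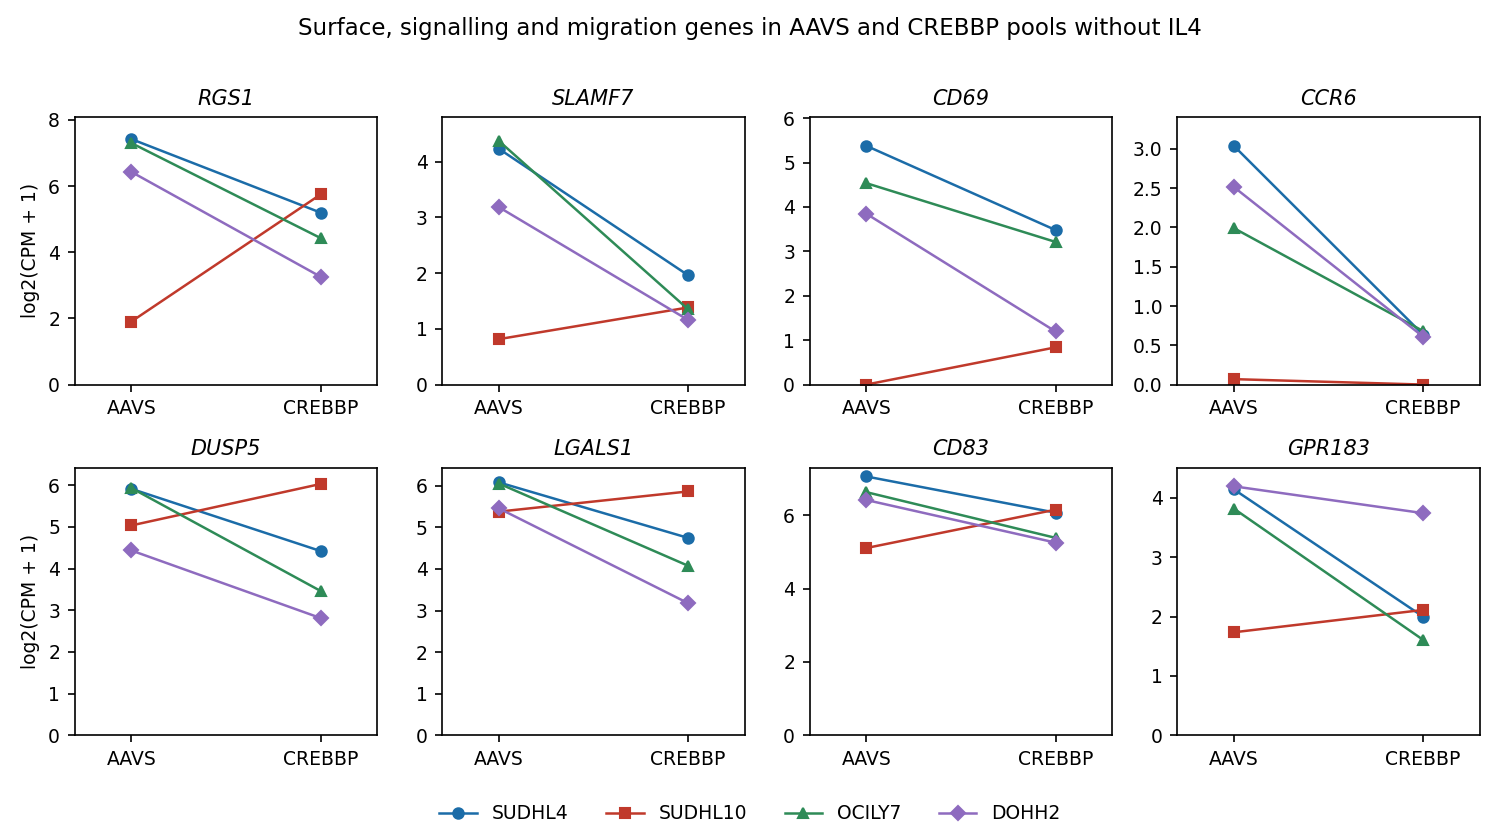
Level of 8 lowered genes as log2(CPM + 1) (y axes, linear from 0) in the AAVS and CREBBP pool of each line without IL4, with 1 line per cell line entry joining its 2 libraries. All 8 are lower in the CREBBP pool of SUDHL4, OCILY7 and DOHH2, and in SUDHL10 CCR6 alone of the 8 is not higher in the CREBBP pool.

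The list of genes repressed by BCL6, which B cells turn on as they leave the germinal centre, had 22 members tested. In the 3 lines 4 fell (CD69, GPR183, PTPN6 and TNFRSF14), against 1.09% of all genes, and 0 rose, with a median of -0.616 against -0.022 for all genes. Of the 22, 18 had a fold change below 0 and 12 were lower in each line, against 22.6% of all genes. The line medians were -0.813, -0.818 and -0.714 in SUDHL4, OCILY7 and DOHH2 and 0.617 in SUDHL10. CD69, an early activation antigen (chr12:9752486-9760901, minus strand), was at 40.5, 22.2 and 13.4 CPM in the AAVS pools of the 3 lines and 10.2, 8.27 and 1.29 CPM in the CREBBP pools. Each line fell, from 25.4 ± 13.8 to 6.57 ± 4.67 CPM (SD, n = 3; log2 fold change -2.10, SE 0.36, adjusted p = 0.0179), and in SUDHL10 the gene had 0 counts in the AAVS pool and 0.788 CPM in the CREBBP pool. GPR183, the oxysterol receptor that guides B cells out of follicles, was at 16.7, 13.1 and 17.3 CPM in the AAVS pools and 3, 2.05 and 12.4 CPM in the CREBBP pools, with the smallest drop in DOHH2. TNFRSF14, the HVEM receptor that is often lost in follicular lymphoma, was at 4.79, 6.34, 9.28 and 22.5 CPM in AAVS pools and 2.22, 1.29, 0.618 and 39.2 CPM in CREBBP pools. PTPN6, the phosphatase SHP-1, was at 99.2, 84, 27.5 and 247 CPM in AAVS pools and 48.5, 30.5, 4.78 and 207 CPM in CREBBP pools, lower in every line.

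Of 23 B-cell surface antigens tested, 3 fell (FCER2, CD180 and CD83), against 1.09% of all genes, and 0 rose. Of the 23, 12 were lower in each of the 3 lines, against 22.6% of all genes, with a median of -0.541 in the 3 lines and -0.315 in SUDHL10. CD180, a relative of the Toll-like receptors, was at 293, 186, 211 and 134 CPM in the SUDHL4, OCILY7, DOHH2 and SUDHL10 AAVS pools and 83.4, 70, 122 and 100 CPM in the CREBBP pools. CD83, an activation antigen, was at 132, 97.8, 84.2 and 33.4 CPM in AAVS pools and 66.1, 40.7, 37.1 and 70 CPM in CREBBP pools, and FCER2, the low-affinity IgE receptor CD23, at 12.6, 8.83, 9.22 and 6.79 against 4.11, 4.23, 2.76 and 7.26 CPM. CD180 was lower in all 4 lines, and CD83 and FCER2 in the 3 lines only, with a called difference in effect for CD83 (2.22, adjusted p = 0.0389). MS4A1, which encodes CD20, was at 2275, 1268, 1923 and 1376 CPM in AAVS pools and 597, 592, 1547 and 1013 CPM in CREBBP pools, lower in each pair but not called (log2 fold change -0.98, adjusted p = 0.116). Of 22 B-cell receptor signalling genes, PRKCB and PTPN6 fell, against 1.09% of all genes, and 0 rose (median -0.209). All 22 had a fold change below 0 over 4 lines, and 10 were lower in every one of the 4, against 10.9% of all genes. PRKCB, the protein kinase C that carries the signal to NF-kappaB, was at 69.8, 56.8, 96.3 and 9.69 CPM in AAVS pools and 45.6, 24.5, 44.6 and 3.66 CPM in CREBBP pools. Of 20 homing receptor genes CCR6, GPR183 and RGS1 fell, against 1.09% of all genes, with a median of -0.127.

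Genes of acute signalling fell in a few members. Of 26 immediate early and CREB target genes, PDE4D and DUSP5 fell, against 1.09% of all genes, and 0 rose in the 3 lines. The list's median of -0.524 came from unequal lines: -0.267 in SUDHL4, -0.071 in OCILY7 and -1.794 in DOHH2, against 1.405 in SUDHL10. DUSP5, a phosphatase that switches off ERK, was at 59.3, 60.2, 20.6 and 31.8 CPM in AAVS pools and 20.4, 10, 6.03 and 64.4 CPM in CREBBP pools (3-line log2 fold change -1.84, SE 0.23, adjusted p = 0.00928). PDE4D, a phosphodiesterase that breaks down cyclic AMP, was at 6.7, 4.99, 38 and 6.72 CPM in AAVS pools and 1.29, 1.06, 11.1 and 12.4 CPM in CREBBP pools. Both fell in each of the 3 lines and were higher in the SUDHL10 CREBBP pool, with called differences in effect of 2.99 and 3 on the log2 scale. EGR2, a zinc finger factor of the same list, was at 5.74, 4.45 and 33.9 CPM in the AAVS pools of the 3 lines and 1.31, 1.06 and 0.254 CPM in the CREBBP pools, and its adjusted p was 0.058. Of 22 NF-kappaB genes, CCL3 and CD83 fell, against 1.09% of all genes, and 0 rose. The median of -0.328 again came from unequal lines: 0.041 in SUDHL4, -0.379 in OCILY7 and -0.776 in DOHH2, against 0.737 in SUDHL10. CCL3, a chemokine of activated B cells, was at 1.57, 1.91 and 1.47 CPM in the AAVS pools and 0.303, 0.194 and 0.0545 CPM in the CREBBP pools.

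Single members fell in other lists, while 1.09% of all genes fell and 1.59% rose. BCL2L11, which encodes the pro-apoptotic protein BIM, was at 297, 297, 185 and 135 CPM in the SUDHL4, OCILY7, DOHH2 and SUDHL10 AAVS pools and 139, 82.7, 114 and 139 CPM in the CREBBP pools (3-line log2 fold change -1.09, adjusted p = 0.0409). It was the only called gene of 16 in the BCL2 family. RRAGC, a Rag GTPase that activates mTORC1 at the lysosome, was at 40.7, 29.4, 46.5 and 28.2 CPM in AAVS pools and 17.8, 14.1, 24 and 32.6 CPM in CREBBP pools, the only called gene of 27. TP53INP1, a stress-induced p53 target, was at 137, 154, 258 and 12.5 CPM in AAVS pools and 46.7, 18.3, 128 and 9.42 CPM in CREBBP pools, the only called gene of 20. LGALS1, a galectin, fell from 66.8, 65.5 and 42.9 CPM to 25.9, 15.9 and 8.05 CPM in the 3 lines and was at 40.6 and 57.3 CPM in SUDHL10. HDAC9 fell by 1.05 on the log2 scale, the only one of 11 deacetylase and corepressor genes called, and DOCK10 by 2.39, the only one of 27 genes of the core IL4 programme. Of 22 unfolded protein response genes, DDIT3 fell by 1.16 and MANF rose by 1.04. KDM5B, a demethylase of histone H3 named after its values were seen, was at 11.3, 7.37 and 5.99 CPM in the AAVS pools of the 3 lines and 2.92, 1.06 and 1.07 CPM in the CREBBP pools.

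Other genes were named for the size of their drop in the 3 lines. COL1A1, the called fibroblast marker, was at 3.1, 5.58 and 0.172 CPM in the AAVS pools of SUDHL4, OCILY7 and DOHH2. In their CREBBP pools it was at 0.0756, 0.388 and 0 CPM. MS4A14, of the CD20 gene family, was at 2.39, 1.56 and 8.04 CPM and then 0.126, 0.129 and 0.927 CPM, and it was called without each line in turn. PTPRO, a receptor tyrosine phosphatase, was at 17, 11.5 and 1.39 CPM and then 3, 1.42 and 0.0908 CPM. The log2 fold changes were -3.44 for MS4A14 and -2.87 for PTPRO. That of COL1A1 (-4.37), with 0 counts in the DOHH2 CREBBP pool, depends on the small constant added in the fit. COL5A1, a collagen chain, was at 12.4, 15.5 and 85 CPM in AAVS pools and 4.39, 2.07 and 1.29 CPM in CREBBP pools (-3.22), and MUC16 fell by 3.26. HMCN1, at 3.26, 4.84 and 2.02 CPM in AAVS pools and 0.454, 0.194 and 0.472 CPM in CREBBP pools, fell as well. Among raised genes of low level were DDTL (2.89), which shares reads with its near copy DDT, and CAMKV (2.41).

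Other programmes held no called member, or only 1, while 1.59% of all genes rose and 1.09% fell in the 3 lines. Of 16 MHC class II genes none was called in either fit, by edgeR's test, and the median was -0.040 in the 3 lines, with medians between -0.142 and 0.094 by line. HLA-DMB had the lowest value, -0.59, with an adjusted p of 0.222. None was called of 15 MHC class I genes (median 0.056), 21 germinal centre transcription factors (-0.214), 24 interferon-stimulated genes (-0.440), 12 Notch pathway genes (-0.117), 25 sterol synthesis genes (0.103) or 15 genes of the IL4 receptor, JAK and STAT group (-0.292). IRF4, a plasma cell and activation factor, had a log2 fold change of -3.03 with an adjusted p of 0.105. Of 12 plasma cell genes SLAMF7 alone fell (median 0.014). Of 21 chromatin regulator genes of lymphoma only H1-4, also a histone gene, was called, and it rose (median -0.036). Of 20 adhesion and cytoskeleton genes only LGALS1 was called (median -0.293).

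**Figure D4:**
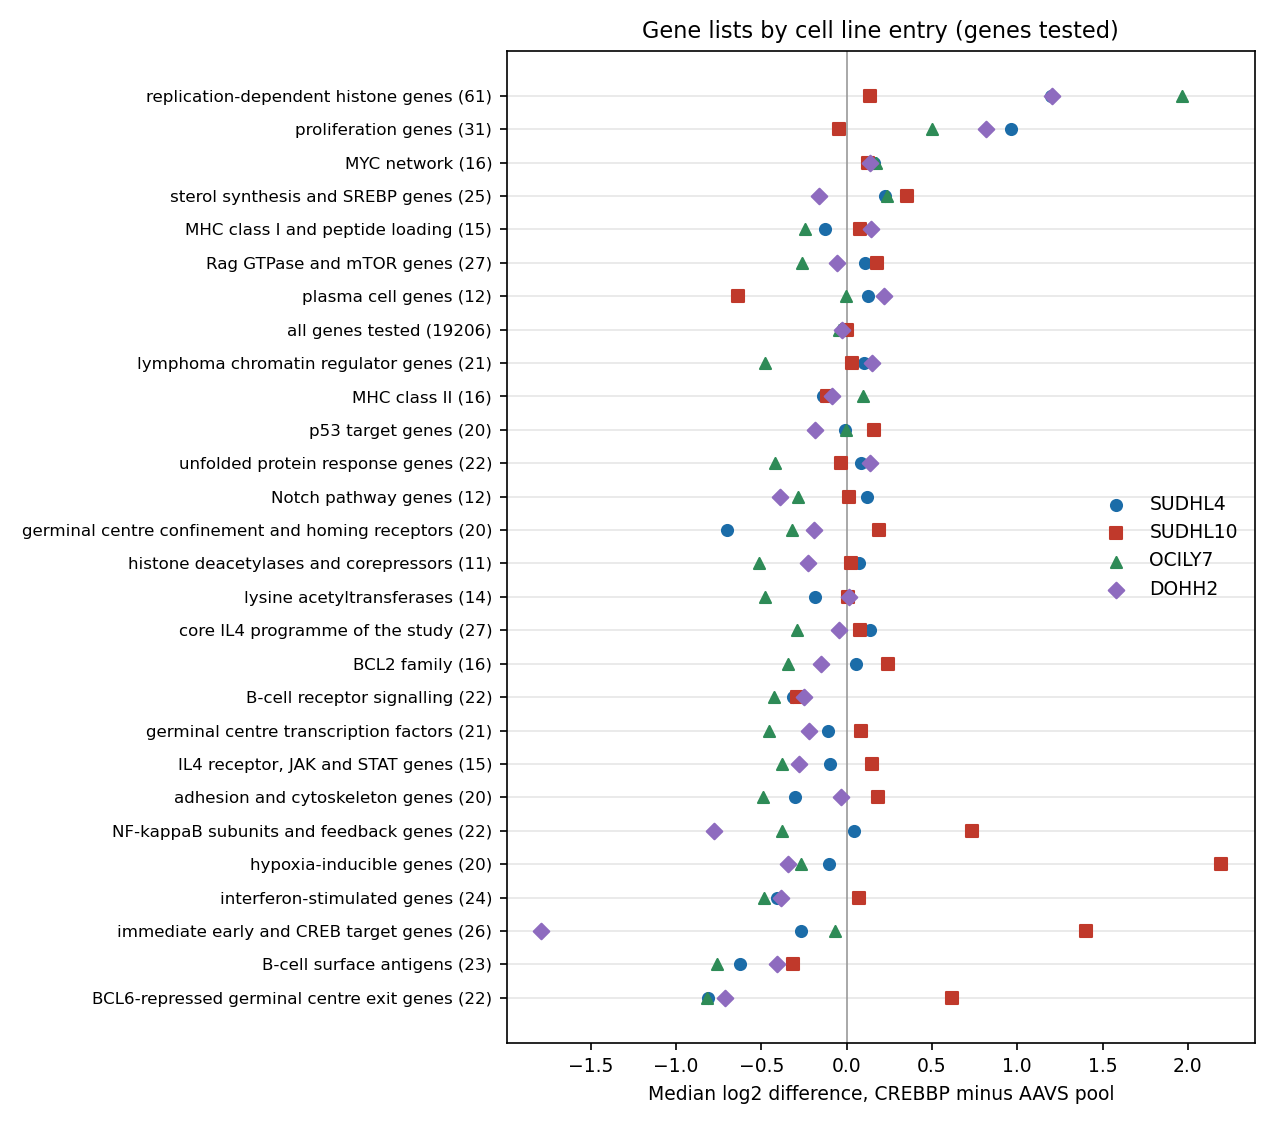
Median log2 difference between CREBBP and AAVS pool without IL4 (x axis) over the tested members of each gene list (y axis, number of genes in brackets), with 1 point per line. Histone genes lie at 1.195 to 1.966 in SUDHL4, OCILY7 and DOHH2, BCL6-repressed genes at -0.818 to -0.714 in these lines and 0.617 in SUDHL10, and hypoxia-inducible genes at 2.193 in SUDHL10.

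Genes that rose in the 3 lines were higher in SUDHL10 about as often as all genes. Genes that fell were lower there less often. Of the 306 genes that rose in the 3 lines, 164 (53.6%) were higher in the SUDHL10 CREBBP pool, against 49.2% of all genes, and of the 209 that fell, 82 (39.2%) were lower, against 48.7%. The median SUDHL10 difference was 0.038 for the raised and 0.126 for the lowered genes. In a test of the difference itself, 70 genes had a higher effect in SUDHL10 (0.37% of 18936) and 3 a lower one (0.0158%). Of the 70, 59 were higher in the SUDHL10 CREBBP pool and lower in those of all 3 other lines, and 31 were among the 209 genes that fell. The test has 1 pair on the SUDHL10 side, and its spread comes from the 3 other pairs.

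Hypoxia-inducible genes held the most genes whose effect differed in SUDHL10, of the lists examined. All 20 tested were higher in the SUDHL10 CREBBP pool (median 2.193), against 49.2% of all genes. The 3 lines had a median of -0.396 with none of the list called. HILPDA, outside this list but also induced by low oxygen, was called higher in the 3 lines (log2 fold change 1.69). The difference was called for 8, against 0.37% of all genes: BNIP3, BNIP3L, KDM3A, P4HA1, PDK1, PFKFB4, SLC2A3 and VEGFA. VEGFA, an angiogenic factor, went from 16.6 to 147 CPM in SUDHL10 and was at 98.2, 91.3 and 112 CPM in the AAVS and 132, 99.7 and 114 CPM in the CREBBP pools of SUDHL4, OCILY7 and DOHH2. PFKFB4, a glycolytic regulator, went from 1.4 to 55 CPM in SUDHL10, with 141, 134 and 75.5 against 173, 93.1 and 15.4 CPM in the others. In both the SUDHL10 AAVS pool was the lowest of the 8 libraries, and its CREBBP pool came within or above the range of the other lines. PDK1 went from 68.4 to 254 CPM, BNIP3 from 36.6 to 171 CPM and BNIP3L from 32.1 to 118 CPM in SUDHL10. The glucose transporter gene SLC2A3 went from 4.46 to 42 CPM, TNFAIP3, a brake on NF-kappaB, from 15.4 to 77.6 CPM, and BHLHE40 from 4.02 to 128 CPM, each above every other library. Of the immediate early and CREB target genes, 24 of 26 were higher in the SUDHL10 CREBBP pool, against 49.2% of all genes.

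**Figure D5:**
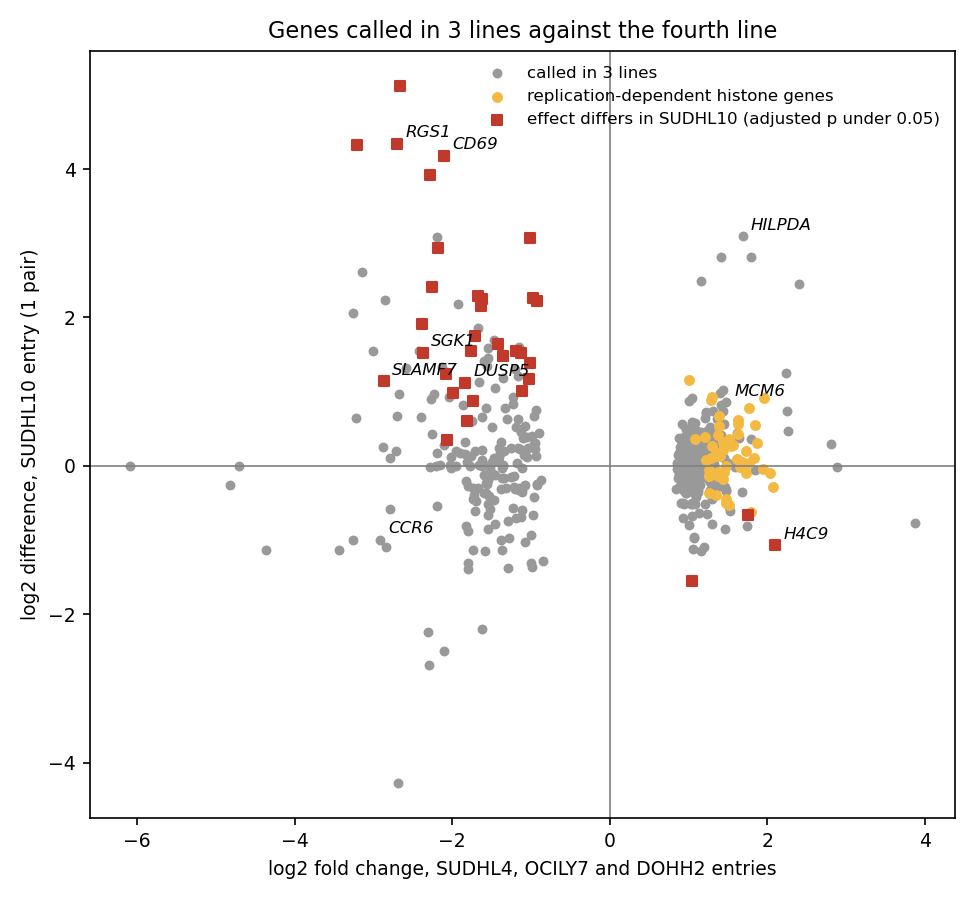
Log2 fold change in SUDHL4, OCILY7 and DOHH2 (x axis) against the log2 difference in the single SUDHL10 pair (y axis) for the 515 genes called in the 3 lines. Red squares mark genes whose effect differed in SUDHL10, 31 of them on the lowered and 3 on the raised side, and histone genes, in orange, lie to the right with a wide spread in SUDHL10.

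The same pools with IL4 gave a second set of libraries that the baseline calls did not use, although they came from the same pools. Of the 306 raised genes, all 306 were tested there, 275 (89.9%) were higher in each of the 3 lines against 25.6% of all genes, and 195 (63.7%) were called against 4.31%. Of the 209 lowered genes 206 were tested, 135 (65.5%) were lower in each line against 32.2% of all genes, and 86 (41.7%) were called against 8.09%. With IL4 the log2 fold change was -3.32 for RGS1, -2.70 for SGK1, -4.47 for SLAMF7, -3.75 for CD69, -3.10 for CCR6 and 1.94 for MCM6, all called in the same direction as without IL4. HILPDA went the other way and fell by 1.48 on the log2 scale (adjusted p = 0.0482). Of the lowered genes nearest a call over 4 lines, MOB3B and ADGRG5 were also called lower with IL4. ENTPD1, ABAT, NLRP7, MIR223HG and LINC00487 were not, and LINC00487 had a log2 fold change of 0.006. The histone genes had a median of 1.047 with IL4 in the 3 lines, with 13 called against 54 without IL4. The AAVS libraries with IL4 held transcripts that the same pools lacked without it: IGHM was at 138.1 to 1711 CPM in them, whereas it was at 0 in the AAVS pools without IL4 and reached 0.06958 CPM at most among CREBBP pools, and the part of this in the IL4 values was not tested.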

How the data were processed

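RNA was measured by rRNA-depleted, paired-end RNA-seq. The authors deposited an estimated count per gene and library, made with RSEM and held as whole numbers. Tools named in the submitters' processing notes were cutadapt 2.3, FastQC 0.11.8, MultiQC 1.7, STAR 2.7.8a and RSEM 1.3.3. Libraries were grouped by genotype and treatment, and lines were taken from the cell line entries. Nothing in the labels gives replicate cultures of a line, so p-values measure the spread between cell line entries. It is a spread between lines only as far as SUDHL4, OCILY7 and DOHH2 are separate lines. Counts were fitted with edgeR 4.0.16 (R 4.3.3; filterByExpr, TMM factors, line as a block, quasi-likelihood test, Benjamini-Hochberg adjustment), and a gene was called at an adjusted p under 0.05. Pairing comes from the cell line, and the 2 libraries of a line deviated together from their group means (correlations of 0.471 to 0.762 across genes). SUDHL4 and OCILY7 libraries also did so with each other (0.299 to 0.561), so the correlations do not show pairing particular to these lines. The study names DESeq2 without a design formula, so DESeq2 was run as an alternative. The effect in SUDHL10 was compared with the others by an interaction term, with 2 residual degrees of freedom. Log2 differences of single lines use a prior count of 2, whereas the fitted fold changes use edgeR's default prior count. CPM is the count divided by the library total. All 62710 Ensembl genes were read, 62639 were placed by GENCODE 44 on GRCh38, and 4 reporter rows were at 0 and left out. Total counts were 29196801 to 56115623 per library. On counts simulated from the 3 lines, 38% of genes changed by 1 on the log2 scale and 86% of those changed by 2 were recovered. Each size was given to 100 genes, and 13 unchanged genes were also called. On counts simulated from the 4 lines the shares were 34% and 82%. The changed genes were drawn only from those above a floor of mean counts, so these shares do not cover genes of low count. The gene families, lists and comparisons were chosen with earlier results of these data known. Named genes were up to 12 per direction called over 4 lines, or, with fewer than 5, the 8 of smallest p; up to 8 more called in 3 lines by size; and list members called or among the 4 of smallest p. SGK1, KDM5B, UNG, H4C13, BHLHE40, PFKFB4, VEGFA, PDK1 and BNIP3 were added after their values were seen. Other alternatives, beside DESeq2 1.42.0, were limma-voom (limma 3.58.1), other scaling, filters, blocks and left-out lines.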

Additional observations from a re-analysis of the deposited data

Results flagged for a closer look

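The values of the printed genes were searched for libraries far from the rest of their group of 4, that is, for a highest or lowest library separated from the next by most of the group's range. Of 162 groups of 4 libraries, 28 held such a library, a few of which chance alone gives, and 22 of the 28 were SUDHL10. Among CREBBP pools, the SUDHL10 library stood apart at 127.8 CPM for BHLHE40, 1.781 for CCL3, 0 for CCR6, 49.39 for COL5A1, 145.6 for DUT, 3.905 for HMCN1, 541.6 for MCM6, 21.44 for NLRP7, 193.1 for SGK1, 41.96 for SLC2A3, 77.58 for TNFAIP3, 39.22 for TNFRSF14 and 106.2 for UNG. Among AAVS pools, it stood apart at 206.4 CPM for EP300, 7.381 for H2BC19P, 72.29 for MANF, 385.9 for MCM3, 572.6 for MCM4, 322 for MCM6, 49.17 for NLRP7, 296.6 for PCNA and 88.89 for UNG. For the replication genes MCM3, MCM4, MCM6, PCNA and UNG the SUDHL10 control was thus the highest control. The DOHH2 AAVS pool stood apart for EGR2 (33.87 CPM), HDAC9 (111), MS4A14 (8.037) and PDE4D (37.95), the DOHH2 CREBBP pool for GPR183 (12.39) and the SUDHL4 CREBBP pool for MUC16 (1.21).

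The effect of CREBBP targeting differed between SUDHL10 and the 3 other lines, by the interaction term in edgeR, for 21 of the genes printed. On the log2 scale, the effect in SUDHL10 was above that in the others by 6.03 for BHLHE40, 2.737 for BNIP3, 2.65 for BNIP3L, 8.439 for CCL3, 2.222 for CD83, 2.987 for DUSP5, 2.441 for LGALS1, 3 for PDE4D, 2.582 for PDK1, 6.11 for PFKFB4, 7.093 for RGS1, 3.925 for SGK1, 4.079 for SLAMF7, 4.981 for SLC2A3, 3.422 for TNFAIP3 and 2.961 for VEGFA. The fitted values of CD69 (10.23) and KDM5B (10.14) depend on edgeR's default prior count, since both had 0 counts in the SUDHL10 AAVS pool. It was below the others for H4C13 (-2.391), H4C9 (-3.151) and MANF (-2.565). With 1 pair in SUDHL10, a difference between lines and a difference between single pools cannot be told apart.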

How the results depend on the processing

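Over 4 lines, where edgeR called no gene, the higher and lower calls were 249 and 337 with no filter on low counts, 257 and 254 by DESeq2 and 18 and 21 by limma-voom, and 0 to 306 and 0 to 209 when 1 line was left out, of which the upper end is the fit without SUDHL10. In the 3 lines, with 306 and 209 calls, the counts were 761 and 675 with no filter, 573 and 454 with at least 10 counts in every library, 1042 and 726 by DESeq2, 649 and 420 by limma-voom, 0 and 0 with no replicate block, 227 and 410 with upper-quartile factors, 45 to 517 and 41 to 294 without 1 line, 466 and 297 with SUDHL4 and OCILY7 in 1 block and 84 and 67 with these summed. The last 2 settings were added after the data were seen. Of the 515 calls, 73 were called without OCILY7 and 514 kept their direction. All 515 kept it without the block. The difference in SUDHL10, with 70 and 3 calls, gave 312 and 54 with no filter, 122 and 20 with at least 10 counts and 234 and 77 by DESeq2. With IL4 over 4 lines, 189 higher and 670 lower calls became 1066 and 2400 with no filter, 1538 and 2616 by DESeq2, 17 higher with no replicate block, and 0 to 886 and 25 to 1661 without 1 line. The value for CREBBP changed sign without the OCILY7 pair and ran, with 1 line left out, from -0.2149 to 0.082 over 4 lines and from -0.3206 to 0.14 over 3, and that for TNFRSF14 over 4 lines with no replicate block (0.062). The cause of these changes was not tested. Of 926 alternative values of the genes printed in the 3 lines, 731 kept direction and call, 180 kept direction but lost the call, 14 gained it and 1 reversed.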
